A study of Mus musculus with 6 samples.

Results

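The small-subunit ribosomal protein genes of mouse oocytes were taken as the protein-coding rows whose symbol is Rpsa or begins with Rps and a digit. Symbols that begin with Rps6k, named for S6 kinases, were left out. The rule found 35 of 54532 genes in the table, and no measured value entered it. Of these, 31 encode proteins of the small ribosomal subunit and were set out as 14 head and 17 body and platform proteins. The other 4 do not stand for such a subunit in the same way: Rps27l is a paralogue of Rps27, Rps27rt is a retrogene of Rps27, Rps12-ps3 carries a pseudogene symbol, and Rps19bp1 encodes a protein that binds Rps19. The proteins Fau and Rack1 belong to the small subunit but not to the name rule, and their values are given beside it. RNA came from frozen oocytes of C57BL/6J mice (SMARTV4 kit, poly-T beads) and was sequenced in bulk. In the AMH group (3 libraries) the mice were given recombinant mouse AMH, anti-Müllerian hormone made in E. coli, at 300 ng daily into the peritoneum from day 21 of age. The control group (3 libraries) has no stated injection. Both groups carry an age label of 6 to 7 weeks, and no label gives the oocyte stage, the number of oocytes in a library or the removal of cumulus cells. No label says that libraries of a group came from separate animals. Every p-value therefore rests on the spread among these libraries, and that spread may be technical.

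The small subunit of the cytosolic ribosome binds messenger RNA and reads its codons, and each of its proteins is needed in about equal number. Growing oocytes build a large store of ribosomes, and the fully grown oocyte lives on stored mRNA. Mammalian ribosomal protein mRNAs typically begin with a C followed by a run of pyrimidines, the TOP motif, through which mTOR and Larp1 set how strongly these mRNAs are translated.

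The bases around annotated start sites are shown first because the TOP motif is the feature that these mRNAs are known to share. RefSeq promoters (GRCm38.p6) were matched by symbol for 26 of the 35 genes; Rps12-ps3, Rps14, Rps20, Rps27a and Rps29 were among those with no entry in the table used. A pyrimidine start, that is a C at the annotated start site followed by 4 bases that are each C or T, was found in 7 of 26 members (26.9%), against 2.51% of all 32851 promoters in the table. The motif was read on the transcribed strand only. The lines below give 15 bases before the start site and the first 15 bases from it on, and capitals mark the run of C and T that covers the start site. The first 7 are the members with a pyrimidine start, and the last 5 were shown for their levels or changes described later.
Rps6: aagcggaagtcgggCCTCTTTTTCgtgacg
Rps18: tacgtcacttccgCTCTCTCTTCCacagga
Rps15a: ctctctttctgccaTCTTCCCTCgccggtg
Rps27: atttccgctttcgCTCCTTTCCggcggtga
Rps27rt: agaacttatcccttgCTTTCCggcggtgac
Rps10: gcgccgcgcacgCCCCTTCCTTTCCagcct
Rps21: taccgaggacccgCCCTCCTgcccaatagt
Rps27l: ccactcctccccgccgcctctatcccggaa
Rps3a1: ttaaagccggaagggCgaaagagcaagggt
Rps2: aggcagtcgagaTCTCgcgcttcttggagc
Rps13: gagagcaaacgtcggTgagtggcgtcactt
Rps19bp1: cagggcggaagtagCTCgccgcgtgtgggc

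The Rps6 bases lie at chr4:86857353-86857382 on the minus strand and those of Rps18 at chr17:33955651-33955680 on the minus strand. Those of Rps27 (chr3:90213634-90213663, minus strand) and of Rps27rt (chr9:114982725-114982754, minus strand) share their transcribed letters. Within the 300-base promoter windows the longest identical run of the pair was 38 bases, and it began at the first base of Rps27rt and the second base of Rps27. For Rps27l (chr9:66946071-66946100, plus strand) the longest run shared with Rps27 was 8 bases. Annotated starts may lie away from the starts used in oocytes: a C followed by 4 bases of C or T lay between 10 bases before and 15 bases after the annotated start in 15 of 26 members, against 30.7% of all promoters. The letters CCGGAAG, which hold the core bound by ETS factors, were found on either strand of the 300-base window in 11 of 26 members, against 8.86% of all promoters. AAGATGGC, a YY1-type sequence, was in 2 of 26 against 2.75%, and TATAAA in 2 of 26 against 13.6%, again on either strand.

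The libraries held 66392859 to 72109080 counts, and their resemblance did not follow the labels throughout. By a chi-square statistic over genes, AMH 3 and control 3 were the most alike pair (55.9 per degree of freedom). AMH 1 with AMH 2 gave 69.2, and control 1 with control 2 gave 66.0. Summed CPM (counts scaled to a fixed library size after TMM scaling) of 33 cumulus and granulosa markers was 6901, 6408 and 5535 in AMH 1, 2 and 3 and 2243, 1376 and 6057 in controls 1, 2 and 3, and control 3 exceeded AMH 3. Oocyte markers gave 41554, 39879 and 62637 CPM in AMH 1, 2 and 3 and 80086, 83887 and 64454 CPM in controls 1, 2 and 3, and all 35 of them, Gdf9 and Bmp15 included, had counts. Summed immune marker CPM was 87.5 to 107 in AMH libraries and 10.2 to 42.9 in controls, blood markers gave 22.8 to 357 and 1.11 to 5.64 CPM, and oviduct epithelium markers 155 to 781 and 21.7 to 172 CPM. Theca and stroma markers gave 6.94 to 35.4 and 4.44 to 29.9 CPM, and endothelial markers, with Emcn at 0 in every library, 118 to 191 and 207 to 252 CPM. In bulk RNA, a different share of cells of a type and a different amount of RNA per cell cannot be told apart.

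The comparison of AMH with control libraries asks how the hormone, given daily from day 21 of age, bears on the RNA of these oocyte libraries. Small-subunit ribosomal protein mRNAs had higher values in AMH libraries as a body: their summed CPM was 2373, 2539 and 1682 in AMH 1, 2 and 3 and 936, 514 and 970.1 in controls 1, 2 and 3. Every AMH library lay above every control. AMH 3 lay nearest to the controls and control 2 lowest of all. The group means were 2198 ± 455 CPM in AMH and 807 ± 254 CPM in control libraries (SD, n = 3 each), a ratio of 2.72. As a share of all counts the genes made up 0.278%, 0.292% and 0.166% in AMH 1, 2 and 3 and 0.0837%, 0.0459% and 0.0914% in controls 1, 2 and 3.

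With edgeR (quasi-likelihood, Benjamini-Hochberg over 18868 genes) 0 of the 35 genes were called higher (0% of all genes) and 0 lower (0%). The smallest edgeR adjusted p among them was 0.116. It was also the lowest of all tested genes and was shared by 3316 of them, 28 members included, so it does not rank these genes. Before adjustment, 31 of 35 members had an edgeR p under 0.05 and a higher mean in AMH, as did 20.2% of all tested genes, and 0 had a lower one, against 17.3%. In 30 of 35 members every AMH library lay above every control, as in 26.9% of all tested genes. Every AMH library lay below every control in 0 members, against 23.3%. The fitted log2 fold change was above 0 in 34 of 35, against 49.7% of all genes, and at least 1 in 31 of 35, against 27.8%. Its median was 1.58 over the members and -0.01 over all tested genes. DESeq2 called 29 members higher (15.7% of its genes) and 0 lower (5.71%). limma-voom called 0 members in either direction (0% of all genes), and with sample quality weights it called 32 higher (39% of all genes) and 0 lower (35.7%). Among the 6 libraries left out in turn, edgeR made calls without control 3 and without AMH 3, and 0 without any other. Without control 3, it called 27 members higher (26.8% of all genes) and 0 lower (11.2%). Without AMH 3 it called 0 lower (6.73%) and 9 higher (1.45%): Rps2, Rps7, Rps13, Rps16, Rps20, Rps25, Rps27a, Rps28 and Rps29.

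**Figure D1:**
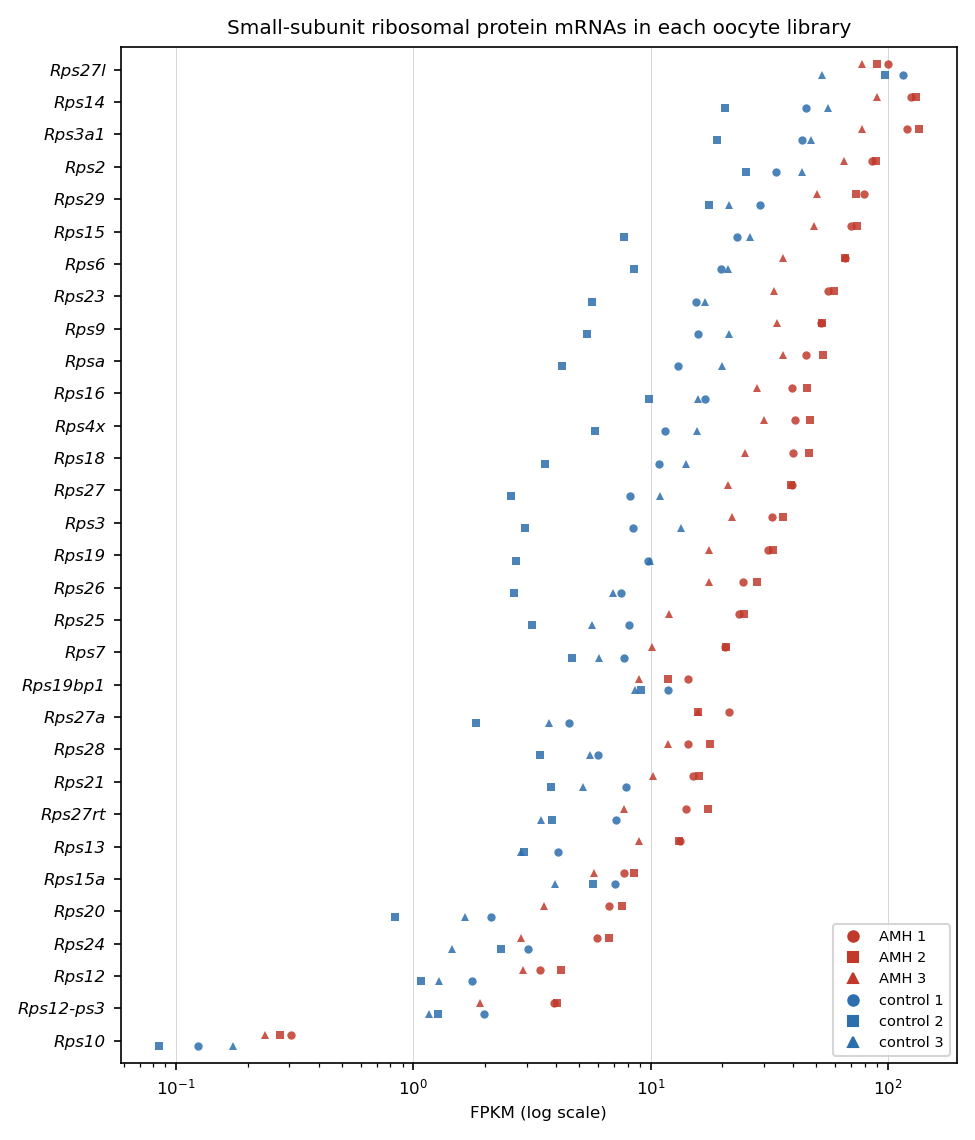
FPKM of 31 of the 35 genes on a log axis, ordered by mean, with 1 point per library (red AMH, blue control, the shape giving the library number). Means run from 0.199 FPKM for Rps10 to 89.1 FPKM for Rps27l, and most genes have the 3 red points right of the 3 blue ones, with control 2 often far to the left.

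Levels were compared between genes on the deposited FPKM values, which divide by a gene length of 374 to 6270 bases. On that scale the gene means over 6 libraries had a median of 20.3 FPKM. The highest mean over both groups was that of Rps27l, whose product differs little from Rps27 and whose gene is known as a p53 target. It had 99.98, 90.2 and 78.0 FPKM in AMH 1, 2 and 3 and 115.8, 97.9 and 52.6 FPKM in controls 1, 2 and 3. Its place rests on the controls, since its mean of 89.4 FPKM in AMH libraries lay below those of Rps14 (116 FPKM) and Rps3a1 (111 FPKM). Next over both groups stood Rps14, a platform protein, which had 126, 132 and 90.1 FPKM in AMH 1, 2 and 3 and 45.4, 20.6 and 55.8 FPKM in controls 1, 2 and 3. Rps3a1, a platform protein that contacts the mRNA exit, had 121, 135 and 78.0 FPKM in AMH 1, 2 and 3 and 43.4, 19.0 and 47.3 FPKM in controls 1, 2 and 3. In both genes the groups did not overlap, while the difference between them was small beside the spread among libraries, so their order is not fixed. Rps2, which lines the entry of the mRNA channel, averaged 79.9 ± 12.7 FPKM in AMH and 34.1 ± 9.14 FPKM in control libraries (SD, n = 3 each). Rps29 averaged 67.6 ± 15.3 FPKM in AMH and 22.7 ± 5.68 FPKM in control libraries (SD, n = 3 each). Rps2 was above Rps29 in each of the 6 libraries; their means differed by less than either SD in AMH libraries and by more than either SD in controls. The order within the subunit was much alike in both groups, with a Spearman rho of 0.95 between the 35 control means and the 35 AMH means, which share annotation and gene length. Ranks by FPKM and by CPM per kilobase of the principal GENCODE M21 transcript had a rho of 0.84. By CPM per kilobase Rps14 ranked 1 and Rps27l 2. Rps19 went from rank 20 by FPKM to rank 3 and Rps18 from 17 to 5, so the order depends on the length used. Rps20 and Rps15a, with principal transcripts of 3706 and 5130 bases, stood low on either scale. Both scales divide by a length that is long for these genes. Without it, Rps15a averaged 47.3 CPM in AMH and 36.3 CPM in control libraries, and Rps20 24.8 and 6.55 CPM.

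Among the 14 head proteins, every AMH library lay above every control in 14, against 26.9% of all tested genes. Their log2 fold changes ran from 1.07 to 2.37 with a median of 1.81. Rps27a, made as a fusion with ubiquitin (11, 29545846 to 29548109), had 42.6, 31.8 and 33.3 CPM in AMH 1, 2 and 3 and 9.19, 3.77 and 7.81 CPM in controls 1, 2 and 3. Its lowest AMH library was 3.46 times its highest control, and its log2 fold change of 2.37 (SE 0.37, edgeR adjusted p = 0.116) was the largest of the 35. Rps29, a small zinc-binding protein of the head, had 55.4, 51.7 and 37.1 CPM in AMH 1, 2 and 3 and 20.6, 12.7 and 15.7 CPM in controls 1, 2 and 3. Rps28, which lies near the mRNA exit, had 21.4, 26.5 and 18.5 CPM in AMH 1, 2 and 3 and 9.07, 5.22 and 8.57 CPM in controls 1, 2 and 3. For both, the 3 AMH libraries stood apart from the 3 controls, and the log2 fold changes were 1.55 (SE 0.26) and 1.54 (SE 0.30), each with an edgeR adjusted p of 0.116. Rps16, whose tail reaches the decoding centre, had 50.6, 58.7 and 38.0 CPM in AMH 1, 2 and 3 and 22.2, 12.9 and 21.3 CPM in controls 1, 2 and 3. It too showed no overlap between the groups. Rps19, known in human for its part in Diamond-Blackfan anaemia, had 148, 156 and 87.9 CPM in AMH 1, 2 and 3 and 47.0, 13.1 and 49.5 CPM in controls 1, 2 and 3. Rps18, which takes part in a contact with the large subunit, averaged 94.9 ± 26.5 CPM in AMH and 24.8 ± 14.2 CPM in control libraries (SD, n = 3 each). In both genes control 2 lay far below the other controls. Rps3, which with Rps2 lines the mRNA entry, averaged 139 ± 30.3 and 38.9 ± 25.0 CPM in AMH and control libraries. Of the rest, Rps25, a protein used by some viral entry sites on mRNA, averaged 55.5 ± 18.4 and 15.9 ± 6.85 CPM, Rps15 41.6 ± 7.75 and 12.5 ± 6.57 CPM, Rps20 24.8 ± 8.29 and 6.55 ± 2.76 CPM, and Rps12 7.29 ± 1.25 and 2.91 ± 0.73 CPM. Rps10, the least counted, had the smallest change of the head (1.07, SE 0.42, edgeR adjusted p = 0.124).

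Among the 17 body and platform proteins, every AMH library lay above every control in 15, against 26.9% of all tested genes. Their log2 fold changes reached 2.17, with a median of 1.58. Rps13 (7, 116331505 to 116334195), the member of smallest p, had 36.3, 36.1 and 25.6 CPM in AMH 1, 2 and 3 and 11.3, 8.16 and 8.08 CPM in controls 1, 2 and 3, and it was the 7th of all genes by edgeR's p. Its controls lay close together, with a mean of 9.19 ± 1.85 CPM (SD, n = 3). Rps2 (17, 24718116 to 24721929) had 158, 165 and 127 CPM in AMH 1, 2 and 3 and 63.8, 47.9 and 84.0 CPM in controls 1, 2 and 3, a fitted fold of 2.30 (edgeR adjusted p = 0.116). Rps6, the substrate of the S6 kinases (4, 86854660 to 86857412), had 105, 107 and 60.8 CPM in AMH 1, 2 and 3 and 32.4, 14.1 and 35.6 CPM in controls 1, 2 and 3. Its log2 fold change was 1.73 (SE 0.40, edgeR adjusted p = 0.116), and AMH 3 lay between the other AMH libraries and the controls. Rpsa, also known as the laminin receptor precursor, averaged 146 ± 25.1 CPM in AMH and 41.2 ± 26.5 CPM in control libraries (SD, n = 3 each). Rps26, a platform protein that touches mRNA ahead of the start codon, averaged 37.1 ± 7.63 and 9.21 ± 4.27 CPM, and Rps23, at the decoding centre, 64.4 ± 17.3 and 16.9 ± 8.22 CPM. Rps4x, encoded on the X chromosome, had 67.1, 78.0 and 52.3 CPM in AMH 1, 2 and 3 and 19.4, 9.91 and 27.2 CPM in controls 1, 2 and 3. The remaining platform and body genes were Rps9, with 120.2 ± 24.8 and 37.5 ± 21.7 CPM, Rps7, with 35.4 ± 11.9 and 12.9 ± 3.11 CPM, and Rps21, with 11.5 ± 2.34 and 4.74 ± 1.72 CPM in AMH and control libraries.

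**Figure D2:**
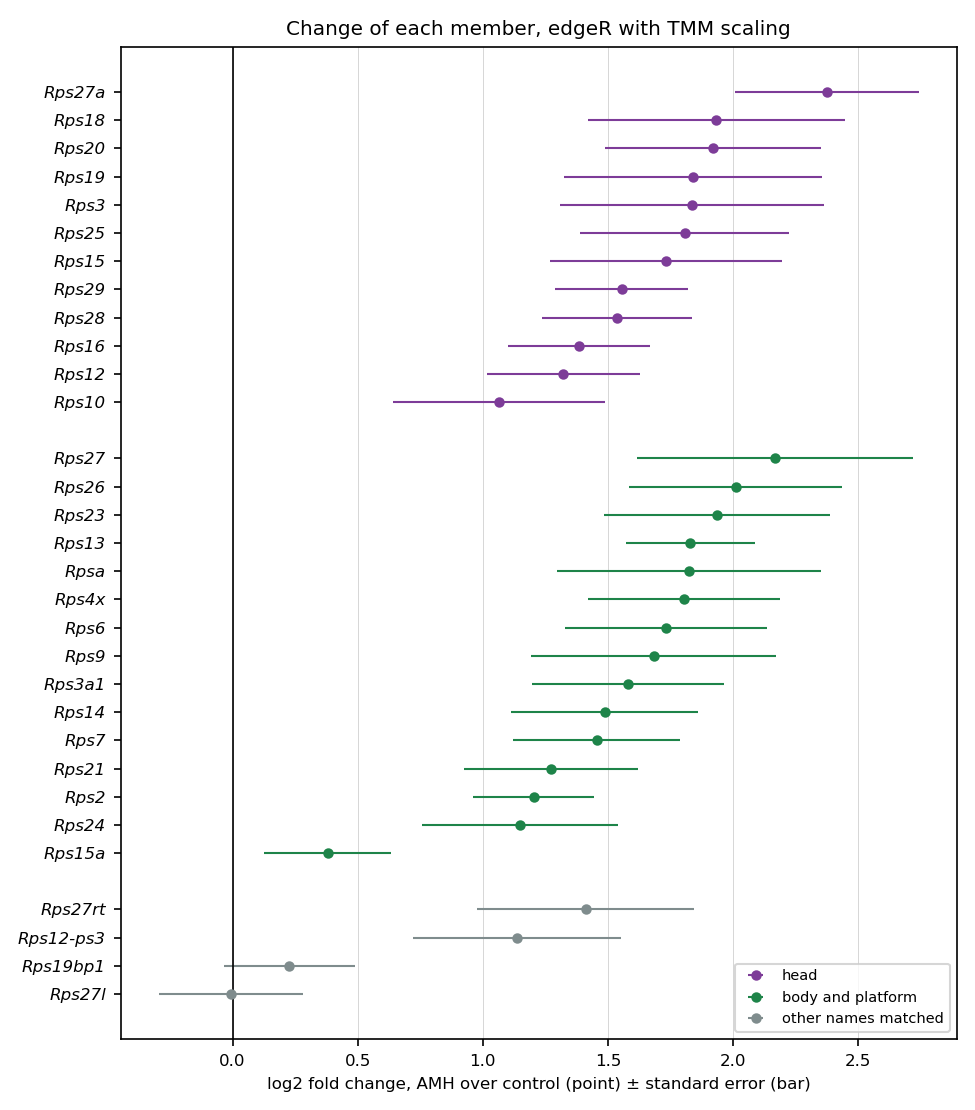
Log2 fold change of 31 of the 35 genes, AMH over control, from edgeR with TMM scaling (point) and its standard error (bar), for head proteins, body and platform proteins and the other names matched. Rps27a is highest at 2.37, while Rps15a, Rps19bp1 and Rps27l lie under 0.5.

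Low log2 fold changes, under 0.5, were found for the subunit gene Rps15a and the partner gene Rps19bp1. Rps15a, a body protein with a pyrimidine start, had 49.2, 54.0 and 38.7 CPM in AMH 1, 2 and 3 and 45.6, 37.3 and 26.1 CPM in controls 1, 2 and 3, and its groups overlapped (log2 fold change 0.38, SE 0.26, edgeR adjusted p = 0.270). Rps19bp1, whose product binds Rps19 in the nucleolus, had 15.7, 13.1 and 10.3 CPM in AMH 1, 2 and 3 and 13.3, 10.3 and 9.84 CPM in controls 1, 2 and 3. Its log2 fold change was 0.23 (SE 0.26, edgeR adjusted p = 0.503) and came to -0.0066 with upper-quartile scaling, so it has no stable direction. Rps24, whose mRNA is spliced in several forms, was the other subunit gene with overlapping groups. It had 37.5, 42.3 and 19.0 CPM in AMH 1, 2 and 3 and 19.7, 15.2 and 9.63 CPM in controls 1, 2 and 3, so AMH 3 lay just below control 1.

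The libraries of a group were not alike, and the members shared much of that unevenness. AMH 3 was the lowest AMH library in 34 of 35 members, against 42.6% of all tested genes, the exception being Rps27a. Control 2 was the lowest control in 27 of 35, against 42.9% of all tested genes, and control 3 in the other 8, among them Rps13, Rps15a, Rps19bp1, Rps24, Rps27l, Rps27rt and Rps12-ps3. Set against the median of the other members on log2(CPM + 1), 27 of 35 had a Pearson r above 0.95 over the 6 libraries, a description that reflects the groups and the shared libraries. The lowest were Rps27l at -0.04, Rps15a at 0.54, Rps19bp1 at 0.59 and Rps24 at 0.75. Between the most alike libraries, AMH 3 and control 3, all 35 members were above control 3 in AMH 3, against 51% of all tested genes, with a median ratio of 1.78 and a range of 1.05 for Rps19bp1 to 4.27 for Rps27a. These 2 libraries had 5535 and 6057 cumulus and granulosa marker CPM. With log2 summed cumulus marker CPM as a covariate over all 6 libraries, the members' median log2 fold change was 1.07, against 1.58 without it. That of all tested genes was 0.02, and 35 of 35 members were positive. With the covariate, 21 members had an edgeR p under 0.05 and a higher value in AMH, against 31 without it. Over all tested genes these numbers were 1042 and 3814. No member had an edgeR adjusted p under 0.60 with the covariate. The cumulus marker sum followed the group in all libraries but control 3. The covariate fit therefore rests largely on that library, and cumulus content and group cannot be told apart by it. Immune and blood marker sums were higher, and oocyte and endothelial marker sums lower, in every AMH library than in every control, and their part in the result was not tested. Log2 fold changes were positive in 8 of 10 immune and 5 of 5 tested blood markers, against 49.7% of all tested genes. Cumulus and granulosa markers were positive in 29 of 33, oviduct epithelium markers in 9 of 9 and tested theca and stroma markers in 3 of 6. The sums of these lists overlapped between the groups, and their part in the result was not tested either. Log2 fold changes were negative in 34 of 34 tested oocyte and 4 of 5 tested endothelial markers. The endothelial exception, Cdh5, had 2.64, 1.96 and 1.74 CPM in AMH 1, 2 and 3 and 0.403, 0.265 and 1.59 CPM in controls 1, 2 and 3.

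Rps27 and its paralogue Rps27l differed in how their values were spread over the groups. Rps27, a zinc-binding platform protein (3, 90212522 to 90213651), had 41.7, 41.3 and 23.6 CPM in AMH 1, 2 and 3 and 8.79, 2.80 and 12.1 CPM in controls 1, 2 and 3, a log2 fold change of 2.17 (SE 0.55, edgeR adjusted p = 0.116). Rps27l (9, 66946086 to 66949516) had 82.5, 74.7 and 67.7 CPM in AMH 1, 2 and 3 and 97.6, 83.1 and 45.4 CPM in controls 1, 2 and 3. Its groups overlapped on both sides, with a log2 fold change of -0.01 (SE 0.29, edgeR adjusted p = 0.984) whose sign varied with the scaling, which leaves it without a direction. The ratio of Rps27 to Rps27l counts needs no scaling between libraries. It was 0.506, 0.553 and 0.348 in AMH 1, 2 and 3 and 0.0901, 0.0337 and 0.267 in controls 1, 2 and 3. The groups did not overlap, and the mean log2 ratio was -1.12 ± 0.35 in AMH and -3.42 ± 1.49 in control libraries (SD, n = 3 each). An exact two-sided permutation test gave p = 0.1, the smallest that 3 against 3 libraries allow, and 0.133 after adjustment over the 4 pairs compared.

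**Figure D3:**
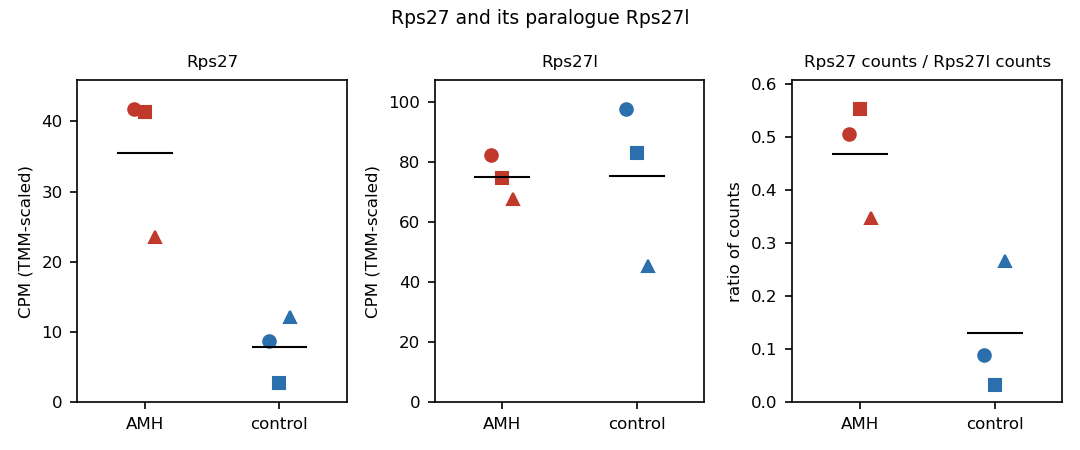
CPM of Rps27 (left) and Rps27l (middle) and the ratio of their counts (right) in each library, with AMH in red, control in blue, the shape giving the library number and a bar at the group mean. The ratio is 0.348 to 0.553 in AMH libraries and 0.0337 to 0.267 in controls, while the CPM of Rps27l overlaps between groups.

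The other 3 pairs gave further ratios within libraries. Rps19 over Rps19bp1 was 9.43, 11.9 and 8.54 in AMH 1, 2 and 3 and 3.54, 1.28 and 5.03 in controls 1, 2 and 3, without overlap (two-sided exact permutation p = 0.1, adjusted 0.133). Rps4x over Rps4l, an autosomal copy that the table lists as a transcribed processed pseudogene, was 6.93, 11.4 and 6.15 in AMH 1, 2 and 3 and 2.11, 0.605 and 4.29 in controls 1, 2 and 3, also without overlap (two-sided exact permutation p = 0.1, adjusted 0.133). Rps4l itself had 9.68, 6.85 and 8.49 CPM in AMH 1, 2 and 3 and 9.22, 16.4 and 6.34 CPM in controls 1, 2 and 3, and its groups overlapped. In control 2 it was counted more often than Rps4x. Rps27rt over Rps27 overlapped between the groups, at 0.127, 0.160 and 0.130 in AMH 1, 2 and 3 and 0.316, 0.533 and 0.113 in controls 1, 2 and 3 (two-sided exact permutation p = 0.4, adjusted 0.4). Rps27rt had 5.31, 6.62 and 3.07 CPM in AMH 1, 2 and 3 and 2.78, 1.496 and 1.36 CPM in controls 1, 2 and 3 (log2 fold change 1.41, edgeR adjusted p = 0.116). Rps12-ps3 had 1.96, 2.03 and 1.01 CPM in AMH 1, 2 and 3 and 1.01, 0.654 and 0.606 CPM in controls 1, 2 and 3, with AMH 3 a shade under control 1 (log2 fold change 1.14, edgeR adjusted p = 0.118).

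Ribosomal protein genes have many processed copies, so how far their counts can be their own was measured on the principal GENCODE M21 transcripts. Over all 35 genes, a median of 38.1% of 100-base windows were found letter for letter in a transcript of another annotated gene. For Rps27 the share was 98.4%, all of it with Rps27rt, for Rps12-ps3 it was 100% and for Rps12 88.9%. Counts of Rps27 with Rps27rt, and of Rps12 with Rps12-ps3, are therefore uncertain as to their source. Rps10 is an extreme case: it had 58, 49 and 38 counts in AMH 1, 2 and 3 and 19, 13 and 28 counts in controls 1, 2 and 3, and 47.7% of its windows are also those of the readthrough gene RPS10-NUDT3, which overlaps it on the same strand and had 0 counts. Its processed pseudogene Rps10-ps2 (16, 20822145 to 20822640) had 482, 503 and 367 counts in AMH 1, 2 and 3 and 165, 72 and 168 counts in controls 1, 2 and 3. How many reads of Rps10 were counted elsewhere was not tested.

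The subunit genes Rps3 and Rps21 had 0 shared windows. Their log2 fold changes were 1.84 (SE 0.53) and 1.27 (SE 0.35), each with an edgeR adjusted p of 0.116 and with every AMH library above every control. The 12 members with over 50% shared windows had a median log2 fold change of 1.59. Every AMH library lay above every control in 11 of them, against 26.9% of all tested genes. The 6 members with under 5% shared windows, among them Rps27l, Rps19bp1 and Rps15a, had a median of 0.83. In 3 of them every AMH library lay above every control, against the same 26.9%. Of these 6, Rps27l is a paralogue and Rps19bp1 a partner of a subunit protein. The low share of Rps15a (3.06%) is 154 windows of a principal transcript of 5130 bases, and it has 8 same-named pseudogene rows. The difference between these sets was not tested. Same-named pseudogenes filled 111 rows, of which 67 had any count, and they held 2.49% as many counts as the members. Adding them left the ratio of the group means of summed CPM at 2.71. Gene rows of any kind overlapped 18 of the members, most often snoRNAs within introns (10 members), and 7 overlapped a protein-coding row. Rps27rt and Rps12-ps3 lie wholly within the spans of Osbpl10 and Pdzd8 on the opposite strand, and whether strand was used in counting is not stated.

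**Figure D4:**
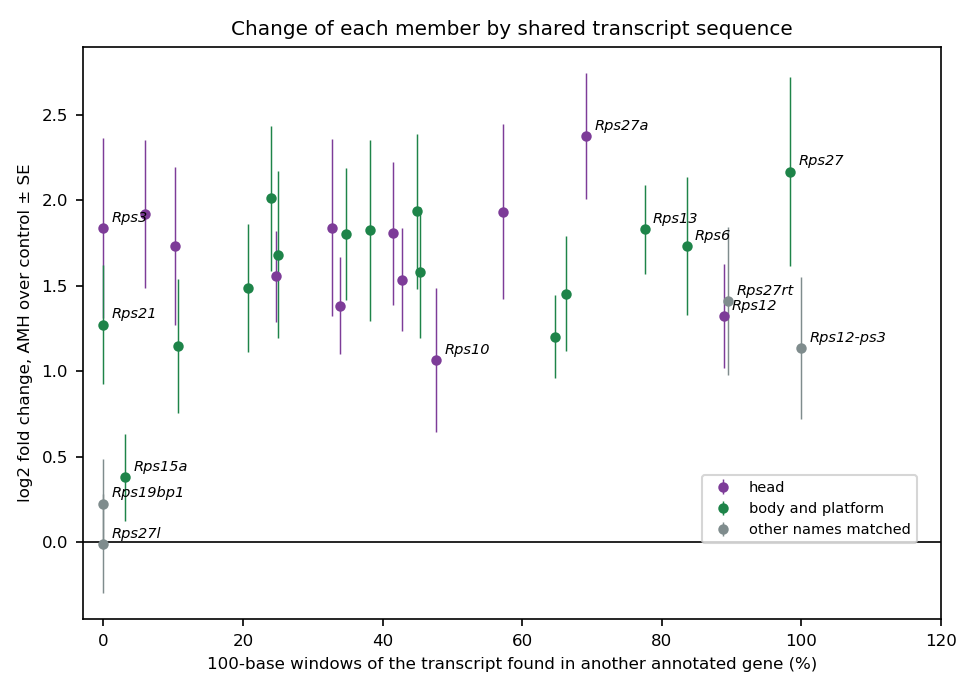
Log2 fold change of 31 of the 35 genes, AMH over control, with its standard error, against the percentage of 100-base windows of its principal transcript that occur in another annotated gene. Rps3 with 0 shared windows (1.84) lies at the height of members with many shared windows such as Rps13 and Rps6 (1.83 and 1.73), and Rps27l and Rps19bp1, also at 0, lie near 0 in change.

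Gene length moved with the fold changes across the transcriptome. Among tested protein-coding genes the median log2 fold change was 0.61 for 434 genes of up to 1000 bases, 0.50 for 1860 genes above 1000 and up to 2000 bases, 0.34 for 4827 genes above 2000 and up to 4000 bases and -0.06 for 8128 longer genes. The members in the same ranges had medians of 1.47 (8 genes), 1.77 (14 genes), 1.74 (8 genes) and 1.84 (5 genes). Every AMH library lay above every control in 45.4%, 41.9%, 35.4% and 21.2% of the protein-coding genes of these ranges. Among the members this held for 6 of 8, 13 of 14, 8 of 8 and 3 of 5. The part of transcript length in the result was not tested.

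The 2 subunit genes outside the name rule had smaller log2 fold changes than the median member. Fau, which encodes a ubiquitin-like protein fused to a subunit protein of the mRNA entry, had 62.1, 65.5 and 43.4 CPM in AMH 1, 2 and 3 and 27.1, 24.3 and 27.0 CPM in controls 1, 2 and 3 (log2 fold change 1.13, SE 0.21, edgeR adjusted p = 0.116). Rack1, a scaffold on the head, had 169, 172 and 157 CPM in AMH 1, 2 and 3 and 118, 101 and 127 CPM in controls 1, 2 and 3 (log2 fold change 0.52, SE 0.15, edgeR adjusted p = 0.116). In both genes every AMH library lay above every control.

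The large subunit gave values much like those of the small one. Of 53 tested large-subunit genes, every AMH library lay above every control in 48, against 26.9% of all tested genes, with a median log2 fold change of 1.63. The ratio of small-subunit to large-subunit counts was 0.708, 0.711 and 0.721 in AMH 1, 2 and 3 and 0.757, 0.761 and 0.684 in controls 1, 2 and 3, so the groups overlapped. The 29 small-subunit genes of the mitochondrial ribosome had a median of 0.49. In 17 of them every AMH library lay above every control, against the same 26.9% of all tested genes. Their summed CPM was 679, 626 and 568 in AMH 1, 2 and 3 and 479.6, 455 and 454 in controls 1, 2 and 3. The differences between these sets were not tested.

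Of 58 genes that build the small subunit, 32 lay above and 26 below a log2 fold change of 0, around a median of 0.06, where 49.7% of all tested genes lay above 0. edgeR called 0 after adjustment. Before it, 20 higher ones (34.5%) and 9 lower ones had p under 0.05, against 20.2% and 17.3% of all tested genes. Emg1, a methyltransferase of ribosomal RNA, averaged 35.7 ± 6.98 CPM in AMH and 17.6 ± 3.50 CPM in control libraries, and Fcf1, which is needed for the early cuts in the precursor RNA, had a log2 fold change of 1.38. Utp23, of the early processing complex, averaged 4.58 ± 1.53 and 1.43 ± 0.67 CPM. In the other direction Riok1, a kinase of late maturation, averaged 437 ± 92.2 CPM in AMH and 737 ± 69.4 CPM in control libraries (SD, n = 3 each).

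Among 24 other mRNAs with a TOP motif, 19 had a positive log2 fold change (49.7% of all tested genes), 18 lay above every control in every AMH library (26.9%), and the median was 1.02. Eif3k, a subunit of an initiation factor, averaged 49.7 ± 3.37 CPM in AMH and 27.1 ± 3.63 CPM in control libraries, Eif3h of the same factor 41.3 ± 10.7 and 17.6 ± 5.63 CPM, and the elongation factor subunit Eef1d 68.6 ± 15.8 and 27.1 ± 7.71 CPM (SD, n = 3 each). Npm1, Hnrnpa1, Nap1l1, Btf3 and Eif3e had negative log2 fold changes, of -0.34 to -0.06. The list shares Fau and Rack1 with the genes above, and edgeR called 0 of them after adjustment, with 17 higher ones at p under 0.05 before it, against 20.2% of all tested genes.

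Of 25 tested genes of mTOR and TOP mRNA control, 12 lay above and 13 below a log2 fold change of 0, around a median of -0.01, a split near the 49.7% of all tested genes above 0. edgeR called 0 after adjustment, and before it 7 higher and 5 lower ones had p under 0.05, against 20.2% and 17.3% of all tested genes. Eif4ebp2, a repressor of cap-dependent initiation, averaged 19.2 ± 2.10 CPM in AMH and 10.4 ± 1.12 CPM in control libraries, and Larp4, a poly(A)-linked RNA-binding protein, 149 ± 29.3 and 234 ± 10.6 CPM (SD, n = 3 each). Tia1, which represses TOP mRNAs under stress, averaged 9.997 ± 0.184 and 2.49 ± 1.75 CPM. Of the 10 genes whose symbols begin with Rps6k, 6 lay above and 4 below a log2 fold change of 0. Of all tested genes, 49.7% lay above it. Rps6kb2, a kinase of Rps6, averaged 11.4 ± 1.80 CPM in AMH and 3.64 ± 2.05 CPM in control libraries, Rps6ka5 47.5 ± 8.35 and 79.6 ± 10.2 CPM, Rps6ka6 31.5 ± 7.41 and 52.9 ± 5.74 CPM and Rps6kc1 18.8 ± 3.73 and 11.2 ± 2.72 CPM (SD, n = 3 each). The lowest adjusted p by edgeR in the list was 0.116. Rps6kb1, the main kinase of Rps6, was chosen after its values were seen and averaged 66.7 ± 4.31 CPM in AMH and 87.5 ± 10.1 CPM in control libraries (SD, n = 3 each; edgeR adjusted p = 0.128).

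**Figure D5:**
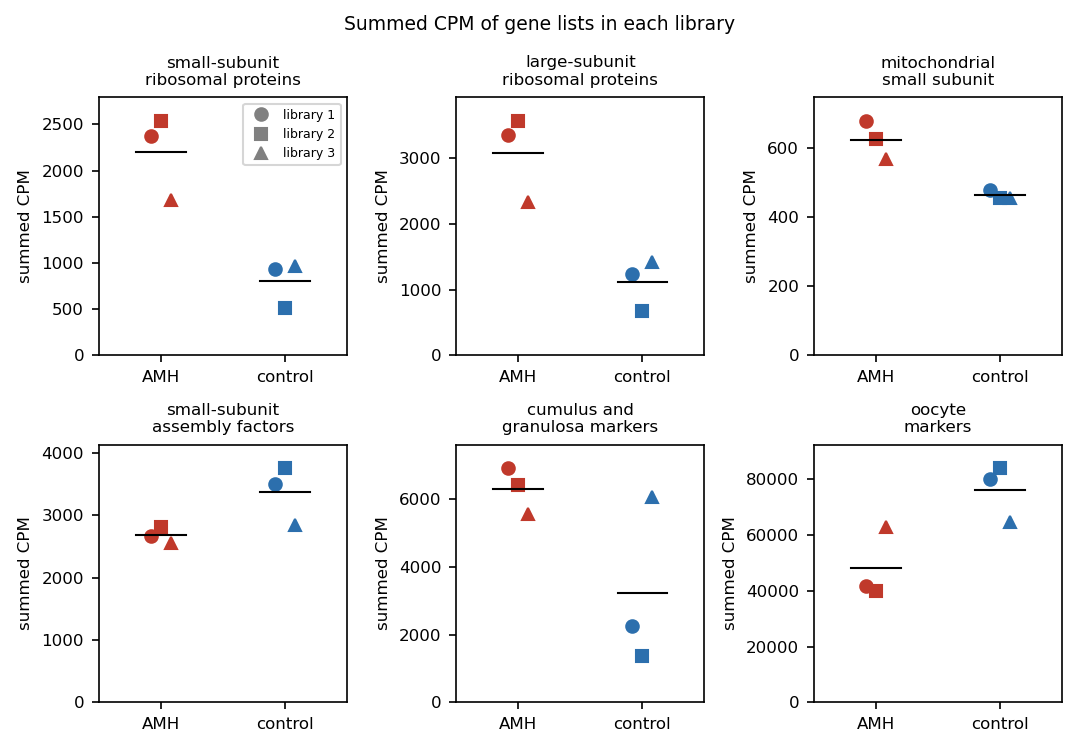
Summed CPM in each library for 6 gene lists, with AMH in red, control in blue, the shape giving the library number and a bar at the group mean. Small-subunit sums are 1682 to 2539 CPM in AMH libraries and 514 to 970.1 CPM in controls, while cumulus marker sums overlap between the groups through control 3 (6057 CPM).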

How the data were processed

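The deposited values are raw counts for each Ensembl gene, as whole numbers, and FPKM made by the authors. The submitters' processing notes list, with no roles, HISAT2 (2.0.5), featureCounts (1.5.0-p3), DESeq2 (1.20.0), GRCm38 and mm10. The sources used here do not give the strand setting, the filters or the handling of multiply mapped reads. The deposited FPKM equal counts divided by gene length and by an effective size for the library, which was 1.05 to 1.18 of the count total in AMH libraries and 0.924 to 0.997 in controls. Coordinates are those of the count table (GRCm38).

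Groups were compared with edgeR 4.0.16 (R 4.3.3) with TMM scaling, filterByExpr and group as the only term, and calls were made at a Benjamini-Hochberg adjusted p of 0.05 over 18868 genes. All 35 members passed the filter. CPM use TMM-scaled library sizes, and standard errors were taken from the F statistic. Sequences are RefSeq's (GRCm38.p6) and transcripts GENCODE M21's. Tested on simulated data of the same 18868 genes for AMH over control, edgeR found 0% of the 64 genes set to a 2-fold change, 25.8% of the 66 set to 4-fold and 65.6% of the 64 set to 8-fold. DESeq2 found 5.97%, 65.7% and 90.9% at these folds. Genes set to no change made up 9 of edgeR's 68 calls and 85 of DESeq2's 193 calls. These shares depend on how few genes were set to change.

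The members and lists were chosen with earlier results of these data known. Values of 4 members are not reported here, though all counts and sums over the members include them. Otherwise values library by library are given for the 6 members of highest mean FPKM, the 6 of smallest p, the 4 of smallest absolute change, and the paralogues with their relatives, and other lists are shown by up to 4 genes of smallest p. Members given as means, Rps6, and Rps24 were chosen after their values were seen. The alternatives were DESeq2 1.42.0, limma-voom (limma 3.58.1) plain and with sample quality weights, 4 other scalings, 2 other filters, limma on log2 FPKM, a cumulus marker covariate, the replicate number as a block, and each library left out once.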

Additional observations from a re-analysis of the deposited data

How the results depend on the processing

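The members' median log2 fold change was positive in all 20 alternatives fitted. It ran from 1.31 to 1.80 with 1 library left out, and was 2.30 with oocyte marker scaling and 1.07 with the cumulus marker covariate. Scaling moved all genes: their median was -0.01 (TMM), 0.26 (library size only), -0.23 (upper quartile) and 0.69 (oocyte markers), and the members' median lay 1.59 to 1.61 above it each time, RLE included. Before adjustment, genes with p under 0.05 by edgeR numbered 3814 higher and 3266 lower (TMM), 5256 and 1242 (library size only), 3392 and 4854 (upper quartile), and 6791 and 26 (oocyte markers). The ratio of group means of summed CPM was 4.49 with oocyte marker scaling.

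Calls depended on the tool. DESeq2 called 2933 genes higher and 1069 lower, with 29 members higher. In the simulated data, 85 of its 193 calls were of unchanged genes. Only 66 or 67 genes per fold were set to change there, of 18868, so that share is not a rate for the calls made here. Sample quality weights in limma-voom gave 7357 and 6744, with 32 members higher. Leaving out 1 library gave 0 to 5291 genes higher, 0 to 2222 lower and 0 to 27 members higher, with calls only without control 3 or AMH 3. Deviations of same-numbered libraries from their group means had correlations of 0.06, -0.10 and -0.25, and those of the other pairs ran from -0.30 to 0.32. With 3 libraries in each group these values cannot show whether equal numbers pair libraries, and no label says so. With the replicate block edgeR called 0 genes and the members' median was 1.65.

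Rps27l (-0.01) turned positive with RLE (0.0070), library size only (0.29), oocyte marker scaling (0.76), at least 5 CPM in 3 libraries (0.031), DESeq2 (0.010), limma-voom (0.063), the replicate block (0.058), the cumulus covariate (0.59) and limma on FPKM (0.077 with a pseudocount of 1, with or without a filter, and 0.079 with 0.1), and it ran from -0.28 to 0.21 with 1 library left out. Rps19bp1 turned negative with upper-quartile scaling (-0.0066). The causes were not tested.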
